A study of Mus musculus with 4 samples.

Results

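Nuclear genes for subunits of the mitochondrial respiratory chain and ATP synthase were examined in DFAT cells of the mouse, which are fibroblast-like and arise by de-differentiation of mature fat cells. Genes were chosen by symbol on an Affymetrix mouse array: names starting with Nduf and a subunit letter and number, Sdha to Sdhd, Uqcr, Cox4 to Cox8 and Atp5, leaving out Cox7a1. This gave 80 of the 18193 genes with a probe set of their own, namely 35 of complex I, 4 of complex II, 8 of complex III, 16 of complex IV and 17 of complex V. The names were taken as they stand, so the set holds Cox7a2l, which helps join complexes III and IV, and Ndufa4, now counted with complex IV. Each of 4 groups had 1 array. The groups were cells given Y-27632, a compound that inhibits ROCK kinases, which act on the actin cytoskeleton, cells given the solvent DMSO, cells transfected with an siRNA against Mkl1, and cells transfected with a control siRNA. Mkl1, listed here as Mrtfa, encodes a protein that binds actin and, when free of it, enters the nucleus and acts with SRF on transcription. The labels give no dose or duration and do not say whether the medium promoted fat cell formation.

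The respiratory chain passes electrons from NADH (complex I) and succinate (complex II) through complex III and cytochrome c to oxygen at complex IV. Complexes I, III and IV pump protons across the inner mitochondrial membrane, and complex V, the ATP synthase, uses their return to make ATP. Most subunits are encoded in the nucleus, a core set by mitochondrial DNA, and fat cells form mitochondria as they differentiate.

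Values are log2 RMA signals, and each treatment was set against its own control, by subtracting DMSO from Y-27632 and control siRNA from Mkl1 siRNA. The controls were also compared, by subtracting DMSO from control siRNA. With 1 array per group no test was possible, no difference has a replicate check, and precision is limited by this number. A gene counts as measured when at least 1 array was at or above 5.69, the median over all values, which left 11600 genes. Of the 80 subunit genes 76 passed, and Ndufb4, Cox4i2, Cox6b2 and Cox7b2 did not. Cox8b passed only through the Y-27632 array, at 5.83. The targeted transcript Mrtfa stood at 7.70 with Mkl1 siRNA and 8.55 with control siRNA. All 6 stromal marker genes and all 14 mature fat cell genes examined passed the filter. So did 1 of 5 macrophage and leukocyte genes, 1 of 4 endothelial, 1 of 5 skeletal myoblast and 1 of 2 osteoblast genes. Of 8 brown fat cell genes, a count that leaves out Cox8b, 3 passed, Ucp1 not among them.

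Subunit genes stood slightly above the matching control with both treatments. With Y-27632, 68 of 80 were above DMSO, with a median difference of 0.17 and a range from -0.22 for Cox8c to 0.40 for Ndufs5. Among all measured genes 50.4% were above DMSO, and their median was 0.0023. With Mkl1 siRNA, 66 of 80 were above control siRNA, with a median of 0.19 and a range from -0.26 for Ndufa7 to 0.54 for Ndufv1, where 50.1% of all measured genes were above 0 and their median was 0.00055. As ratios, these medians are 1.13 and 1.14. On the probe set used for each gene, none of the 80 reached a 2-fold difference with either treatment (1.49% of measured genes with Y-27632 and 3.53% with Mkl1 siRNA did). None reached 1.5-fold there (4.33% and 11.3%). Other probe sets above the filter did pass 1.5-fold. With Y-27632 these were 1 each of Cox7c (0.65) and Atp5o (0.60), and with Mkl1 siRNA 1 each of Ndufb8 (0.59) and Uqcr10 (-0.59). The median subunit signal was 12.01 to 12.32 per array, while the 75th percentile of all values was 8.08. The shares over measured genes were not matched for signal level.

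Among the 46 subunit genes with several probe sets above the filter, 40 were higher with Y-27632, 34 of them on all such probe sets. The other 6 were lower, 1 of them (Cox8c) on all. With Mkl1 siRNA 37 were higher, 36 of them on all such probe sets, and 9 lower, 4 of them on all (Ndufa7, Ndufb7, Ndufb11 and Sdhc). With control siRNA against DMSO 34 were higher, 25 of them on all such probe sets, and 12 lower, 10 of them on all. The matching shares over all measured genes were not computed.

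The choice of control changed the size of this difference. Control siRNA itself stood above DMSO for 62 of 80 subunit genes, with a median of 0.11, while 48.5% of all measured genes were above 0 with a median of -0.0089. Against control siRNA, Y-27632 was higher for 57 of 80, with a median of 0.066 (52.4% of measured genes). Against DMSO, Mkl1 siRNA was higher for 70 of 80, with a median of 0.30 (49.1% of measured genes). In each of these crossed comparisons 1 gene, Cox6a2, passed 2-fold, as did 2.78% and 5.97% of measured genes. For the subunit genes the 2 controls therefore differed by a median of 0.11, beside 0.17 and 0.19 for the treatments.

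Counting arrays instead of differences, 44 of 80 subunit genes had both treatment arrays above both control arrays, against 17.2% of measured genes. The opposite held for Cox7b2, which lay below the filter, and Cox8c alone, against 15.6%. The Mkl1 siRNA array was the highest of the 4 for 56 of 80 (31.3% of measured genes) and the DMSO array the lowest for 58 of 80 (22.6%). In both treatment comparisons 59 of 80 were above 0, against 29.1% of measured genes. Across the 80 genes the differences of the 2 treatments, which share no array, had a Pearson correlation of 0.45 and a Spearman correlation of 0.39; over all measured genes these were 0.39 and 0.26. The points within a comparison share the same pair of arrays and their normalisation.

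**Figure D1:**
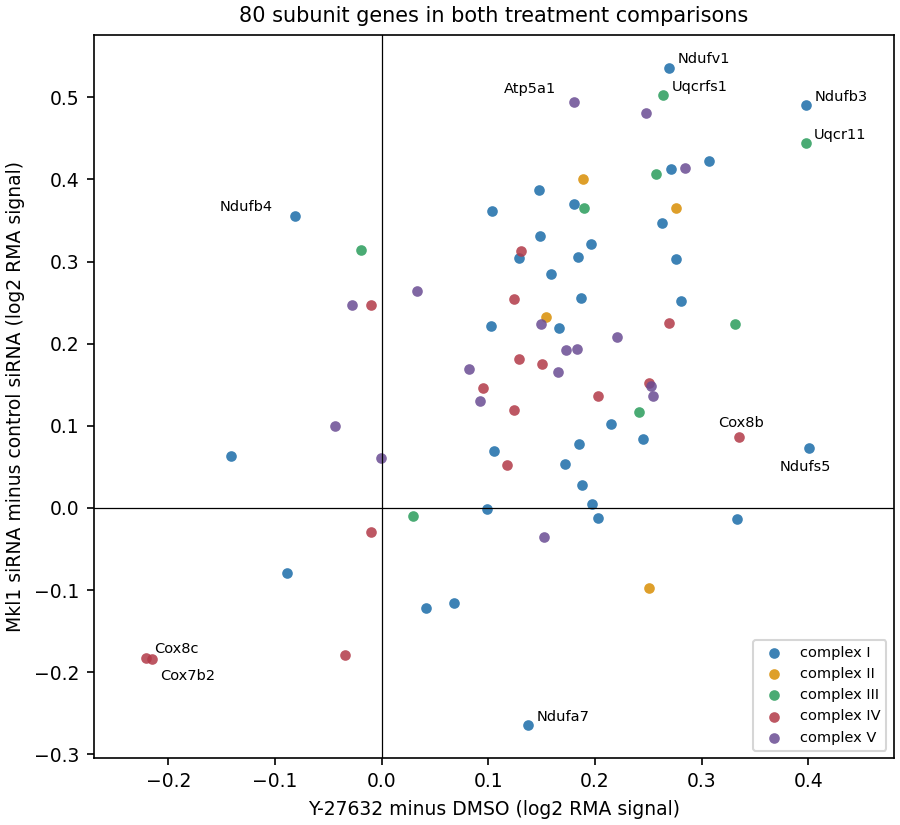
Difference of each of the 80 subunit genes with Y-27632 (horizontal axis, log2 RMA signal minus DMSO) and with Mkl1 siRNA (vertical axis, log2 RMA signal minus control siRNA), coloured by complex. To the upper right of both zero lines lie 59 genes, and Cox8c and Cox7b2 (below the filter) lie furthest to the lower left.

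Other readouts also differed between these arrays, not all in the pattern of the subunits. All 14 mature fat cell genes of a separate list were higher with both treatments, with medians of 2.79 for Y-27632 and 2.43 for Mkl1 siRNA and -0.082 between the controls; Adipoq, which encodes adiponectin, stood at 13.69 with Y-27632 and 10.14 with DMSO, and at 13.86 with Mkl1 siRNA and 10.03 with control siRNA. Pparg, the master regulator of fat cell formation, differed by 1.23 and 1.86. Of 6 stromal genes 5 were higher with Y-27632 (median 0.084) and 1 with Mkl1 siRNA (median -0.35). Signals of 18S ribosomal RNA, read by 3 control probe sets, had a median difference of -0.48 with each treatment and of 0.15 between the controls. For actin, the 3' control probe set exceeded the 5' one by 1.10 with Y-27632 and 0.84 with DMSO, and 0.96 with Mkl1 siRNA and 0.81 with control siRNA. The part of these in the subunit differences was not tested. More mitochondria per cell and a larger share of fat cells cannot be told apart in RNA from whole cultures. Total RNA per cell cannot be read from these values, because RMA equalises array distributions.

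By complex, the median difference was 0.25 for complex III, 0.22 for complex II, 0.18 for complex I, 0.17 for complex V and 0.12 for complex IV with Y-27632. With Mkl1 siRNA the medians were 0.34 for complex III, 0.30 for complex II, 0.22 for complex I, 0.19 for complex V and 0.14 for complex IV, the same order. Between the controls it was not: complex II stood at 0.18, complex I at 0.17, complex V at 0.12, complex III at 0.049 and complex IV at 0.035. The complexes overlapped widely within each comparison, complexes II and III rest on 4 and 8 genes, and the differences between complexes were not tested. The order also depended on the processing. With all probe sets of a gene averaged, the Y-27632 medians were 0.18 for complex I, 0.17 for complex III, 0.15 for complex V and 0.13 for both complexes II and IV. With probe sets open to binding several transcripts left out, the Mkl1 siRNA medians were 0.28 for complex II, 0.22 for complex I, 0.19 for complex V, 0.18 for complex III (6 genes) and 0.096 for complex IV. In that setting the Y-27632 median of complex II was 0.15, below complex I. Against DMSO in place of control siRNA, the Mkl1 siRNA median was 0.39 for complex II and 0.27 for complex III.

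**Figure D2:**
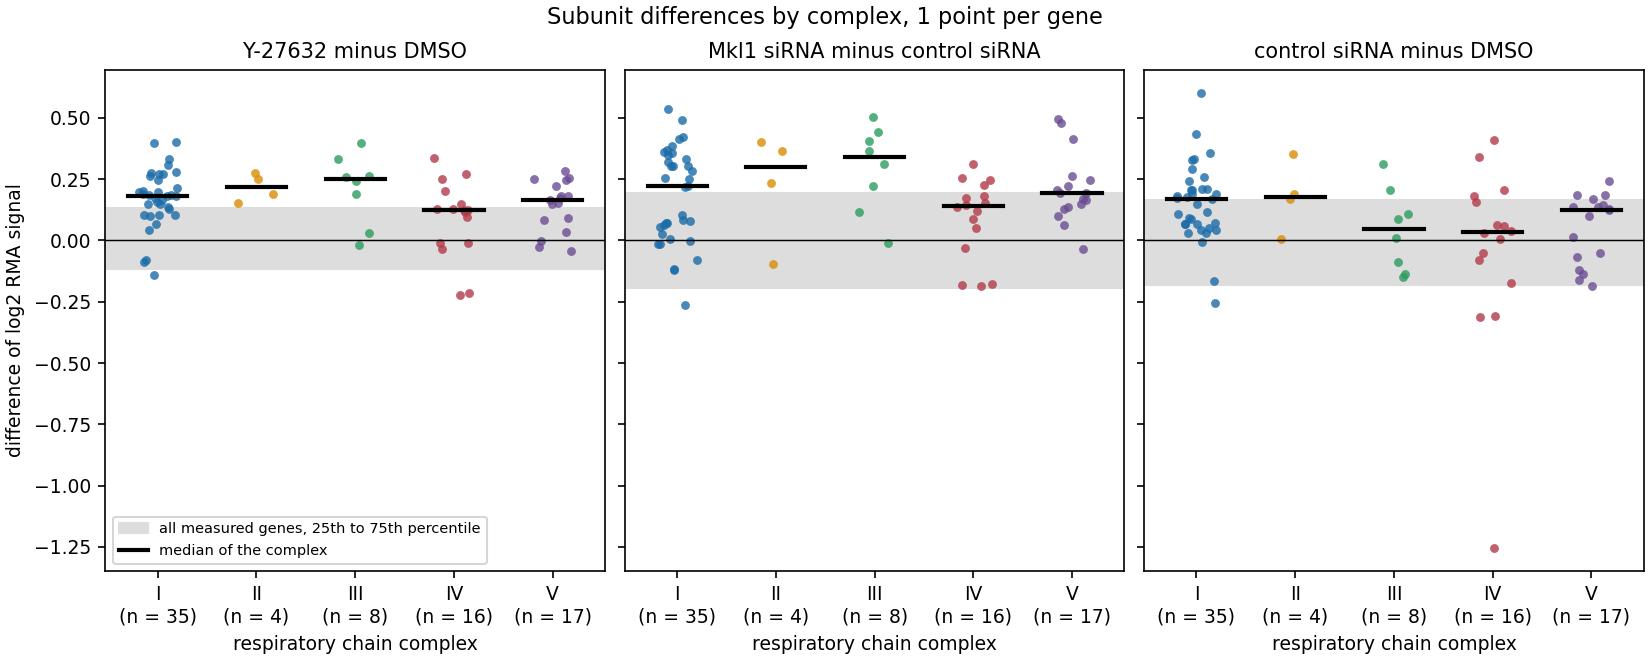
Difference of log2 RMA signal of each subunit gene (points), by complex, in the 3 comparisons; black lines are medians and the grey band spans the 25th to 75th percentile of all measured genes. Medians of all 5 complexes lie above 0, complex III is highest with both treatments on the probe sets plotted (not with probe sets averaged for Y-27632, nor without those open to several transcripts or against DMSO for Mkl1 siRNA), and the low point between the controls is Cox6a2.

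The promoters of some genes that stood above their controls are shown with the motifs found before their starts. RefSeq promoter windows (build GRCm38.p6, 250 bases before to 50 after a start) were matched for 65 of the 80 genes. They were searched on both strands for motifs of 4 regulators of mitochondrial genes: NRF1 (its consensus of 10 letters, 1 of them free), GABPA (CCGGAAGT), YY1 (AAGATGGCG) and the oestrogen-related receptor ESRRA (AAGGTCA). The 250 bases before the start of Sdha lie at chr13:74350241-74350490 (minus strand), those of Sdhd at chr9:50603850-50604099 (minus strand), those of Uqcr11 at chr10:80406822-80407071 (minus strand) and those of Ndufv1 at chr19:4012756-4013005 (minus strand). Capitals mark matches, which are the NRF1 motif in Sdha and Sdhd and the GABPA motif in Uqcr11. Sdhd also has 1 ESRRA match in the part of its window that is not shown. Ndufv1, the gene furthest above control siRNA, has no match and is shown for contrast.
Sdha: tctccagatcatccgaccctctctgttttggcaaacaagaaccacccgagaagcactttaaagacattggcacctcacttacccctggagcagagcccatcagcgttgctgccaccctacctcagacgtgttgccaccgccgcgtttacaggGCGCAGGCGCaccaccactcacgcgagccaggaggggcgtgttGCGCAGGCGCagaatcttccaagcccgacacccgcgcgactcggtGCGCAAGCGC
Sdhd: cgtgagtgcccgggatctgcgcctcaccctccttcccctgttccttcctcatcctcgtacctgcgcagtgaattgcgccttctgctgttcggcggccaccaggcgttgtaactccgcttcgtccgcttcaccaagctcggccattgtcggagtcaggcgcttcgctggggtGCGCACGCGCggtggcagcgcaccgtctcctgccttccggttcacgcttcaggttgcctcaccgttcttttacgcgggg
Uqcr11: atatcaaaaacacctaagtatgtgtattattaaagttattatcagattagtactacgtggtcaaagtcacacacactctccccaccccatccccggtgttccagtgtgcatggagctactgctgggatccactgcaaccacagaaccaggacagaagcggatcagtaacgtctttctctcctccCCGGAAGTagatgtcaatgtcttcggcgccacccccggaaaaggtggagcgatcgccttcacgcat
Ndufv1: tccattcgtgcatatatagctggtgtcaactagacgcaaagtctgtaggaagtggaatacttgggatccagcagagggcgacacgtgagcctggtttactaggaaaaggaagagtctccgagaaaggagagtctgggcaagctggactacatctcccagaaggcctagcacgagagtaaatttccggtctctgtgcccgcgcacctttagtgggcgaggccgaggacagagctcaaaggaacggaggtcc
In Sdha 3 NRF1 matches begin 98, 55 and 10 bases before the start, in Sdhd 1 begins 79 bases before it, and the GABPA match of Uqcr11 begins 66 bases before it. The NRF1 motif was present for 15 of 65 subunit genes (23.1%) and for 5.19% of all 27025 genes with a window. The YY1 motif was present for 6 subunit genes (9.23%, against 1.64%), the ESRRA motif for 8 (12.3%, against 5.38%) and the GABPA motif for 5 (7.69%, against 4.31%). The shares over all genes with a window also count genes not measured here, and shares over the measured genes were not computed. The median GC content was 58.5% in subunit windows and 52.7% in all windows. Genes with an NRF1 match were 5 of 31 in complex I, 2 of 3 in complex II, 1 of 5 in complex III, 1 of 11 in complex IV and 6 of 15 in complex V. Genes with the NRF1 motif had median differences of 0.15 (Y-27632) and 0.25 (Mkl1 siRNA), and those without it had 0.18 and 0.21. A match describes letters in a window and not a bound site.

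Complex I oxidises NADH in its peripheral arm and pumps protons in its membrane arm. With Y-27632, 32 of its 35 genes were above DMSO, and with Mkl1 siRNA 28 were above control siRNA; 20 had both treatment arrays above both control arrays. Ndufv1, the flavin-carrying subunit that takes electrons from NADH, had a signal of 11.48 with Y-27632 and 11.21 with DMSO, and of 11.84 with Mkl1 siRNA and 11.30 with control siRNA. Its differences were 0.27 and 0.54, ratios of 1.21 and 1.45, and its 3 probe sets ran from 0.27 to 0.38 and from 0.48 to 0.56. Both treatment arrays were above both controls.

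Ndufs1, the largest iron-sulphur subunit of the same module, stood at 10.31 with Y-27632 and 10.04 with DMSO, and at 10.64 with Mkl1 siRNA and 10.23 with control siRNA. Ndufv2, another iron-sulphur subunit, differed by 0.13 and 0.30. The NADH-oxidising module had 9 genes, with medians of 0.14 for Y-27632 and 0.22 for Mkl1 siRNA, and it included genes on the other side of 0. Ndufa7, an accessory subunit, stood at 12.87 with Y-27632 and 12.73 with DMSO, but at 12.68 with Mkl1 siRNA and 12.94 with control siRNA, a difference of -0.26. All 5 of its probe sets were below control siRNA, from -0.28 to -0.17, and all 5 above DMSO with Y-27632, from 0.05 to 0.17. Ndufs4, needed for a stable module, differed by -0.09 and -0.08 on the probe set used, while its 3 probe sets above the filter ran from -0.09 to 0.24 and from -0.08 to 0.43.

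The module that reduces ubiquinone was taken as 4 genes, without Ndufa9 (0.28 and 0.30), and had medians of 0.19 and 0.29. Its iron-sulphur subunit Ndufs7 differed by 0.20 for Y-27632 and 0.32 for Mkl1 siRNA, and Ndufs3 by 0.19 and 0.26. Ndufs8, which holds iron-sulphur clusters too, stood at 12.21 with Y-27632 and 12.01 with DMSO, and its difference with Mkl1 siRNA was -0.01. Its 6 probe sets ran from 0.10 to 0.24 with Y-27632 and from -0.08 to 0.04 with Mkl1 siRNA, so all 6 were above DMSO and none was more than 0.04 above control siRNA.

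The 19 membrane arm genes had medians of 0.18 for Y-27632 and 0.25 for Mkl1 siRNA. Ndufb3, an accessory subunit of that arm, stood at 10.85 with Y-27632 and 10.45 with DMSO, and at 11.38 with Mkl1 siRNA and 10.89 with control siRNA. The Y-27632 array was thus just below the control siRNA array, and control siRNA was itself 0.43 above DMSO. Ndufb6 differed by 0.31 and 0.42, with 0.03 between the controls. Ndufs5 had the largest Y-27632 difference of the 80 genes, at 11.62 with Y-27632 and 11.21 with DMSO, but 11.89 with Mkl1 siRNA and 11.82 with control siRNA, which put control siRNA 0.60 above DMSO, a ratio of 1.52. The DMSO array was the lowest for this gene, and Y-27632 lay between it and the siRNA arrays, at -0.20 from control siRNA. Ndufb1 was also lowest with DMSO, with 0.33 for Y-27632, -0.01 for Mkl1 siRNA and 0.33 between the controls, and its other arrays lay close together. Ndufb7 and Ndufb11 differed by -0.12 each with Mkl1 siRNA and by 0.04 and 0.07 with Y-27632. Ndufa4 differed by 0.18 and 0.08, and its relative Ndufa4l2, which is induced by hypoxia, by -0.14 and 0.06 at signals of 6.41 to 6.58.

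Complex II, succinate dehydrogenase, is also an enzyme of the citric acid cycle. All 4 genes were above DMSO with Y-27632, by 0.15 to 0.28, and 3 were above control siRNA with Mkl1 siRNA. Sdha, the flavoprotein that oxidises succinate, stood at 11.16 with Y-27632 and 10.97 with DMSO, and at 11.72 with Mkl1 siRNA and 11.32 with control siRNA. Control siRNA lay 0.35 above DMSO and above Y-27632 for this gene. Of its 4 probe sets 2 passed the filter, and these gave 0.14 and 0.19 with Y-27632 and 0.28 and 0.40 with Mkl1 siRNA. Sdhb, the iron-sulphur subunit, differed by 0.15 and 0.23. The membrane anchors differed from each other: Sdhd stood at 11.48 with Y-27632 and 11.20 with DMSO, and at 11.57 with Mkl1 siRNA and 11.21 with control siRNA, the sole complex II gene with both treatment arrays above both controls. Sdhc stood at 10.04 with Y-27632 and 9.79 with DMSO but at 9.88 with Mkl1 siRNA and 9.98 with control siRNA, and its 2 probe sets were both below control siRNA, at -0.18 and -0.10, and on either side of DMSO with Y-27632, at -0.03 and 0.25.

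Complex III passes electrons from ubiquinol to cytochrome c. Of its 8 genes 7 were above the control in each treatment comparison and 6 had both treatment arrays above both control arrays. Uqcrfs1, the Rieske iron-sulphur protein, stood at 11.72 with Y-27632 and 11.46 with DMSO, and at 12.07 with Mkl1 siRNA and 11.57 with control siRNA, ratios of 1.20 and 1.42. Uqcr11, a small subunit, stood at 12.78 with Y-27632 and 12.39 with DMSO, and at 12.84 with Mkl1 siRNA and 12.40 with control siRNA. Its control arrays differed by 0.01 and its treatment differences were 0.40 and 0.44, so it was close to equal on both controls and on both treated arrays.

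The core proteins of complex III were both above control siRNA with Mkl1 siRNA and differed from each other with Y-27632. Uqcrc2 differed by 0.26 for Y-27632 and 0.41 for Mkl1 siRNA, and Uqcrc1 by -0.02 and 0.31. The second Uqcrc2 probe set gave 0.08 and 0.53, so the size of the contrast with Y-27632 depends on the probe set. Uqcrb, a small subunit near the quinone site, differed by 0.03 and -0.01 at signals of 13.70 to 13.91. Uqcrq, a small subunit too, differed by 0.24 and 0.12, on the 1 of its 4 probe sets that passed the filter. Uqcr10 differed by 0.33 and 0.22, but its 3 probe sets ran from 0.26 to 0.42 with Y-27632 and from -0.59 to 0.22 with Mkl1 siRNA, so its direction with Mkl1 siRNA depends on the probe set.

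Complex IV, cytochrome c oxidase, reduces oxygen, and several of its subunits exist as a broadly expressed form and a form restricted to muscle, lung, testis or brown fat. The 10 genes left without such restricted forms were above DMSO in 9 cases (median 0.13) and above control siRNA in all 10 (median 0.18), whereas all 16 counted 11 and 12. Cox4i1, the broad form of a regulatory subunit, stood at 13.45 with Y-27632 and 13.32 with DMSO, and at 13.61 with Mkl1 siRNA and 13.36 with control siRNA. Its counterpart Cox4i2 lay below the filter at 5.26 to 5.32 on all arrays. Cox5a differed by 0.10 and 0.15, and Cox5b by 0.15 and 0.18, with all 6 Cox5b probe sets above 0 in both comparisons.

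Cox6a1, the broad form of another subunit, differed by 0.12 and 0.05, and Cox6b1 by 0.27 and 0.23. Cox7a2 differed by 0.12 with each treatment. Cox7c differed by 0.13 and 0.31 at signals of 6.59 to 7.03, and its second probe set, at 4.94 to 5.89, gave 0.65 and 0.10. Cox8a, the broad form of the smallest subunit, differed by 0.20 and 0.14, but between the controls by 0.34. Cox8b, found in muscle and brown fat, stood at 5.83 with Y-27632 and 5.49 with DMSO, and at 5.40 with Mkl1 siRNA and 5.32 with control siRNA, all near the filter. Cox7b2 and Cox8c, forms known from testis, were lower with both treatments, with differences of -0.22 and -0.18 each. Cox7b2 lay below the filter, at 2.89 to 3.11 on all arrays, and a second Cox8c probe set stood at 0.30 with Mkl1 siRNA. Cox6b2, below the filter, differed by 0.25 and 0.15. Cox7a2l differed by -0.01 with Y-27632 and 0.25 with Mkl1 siRNA, where control siRNA lay -0.31 from DMSO.

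Cox6a2, the heart and skeletal muscle form of subunit 6a, was the single subunit gene past 2-fold in any of the 3 comparisons, where 2.04% of measured genes were between the controls. It stood at 7.79 with Y-27632 and 7.82 with DMSO, and at 6.39 with Mkl1 siRNA and 6.57 with control siRNA. The 2 siRNA arrays were therefore low together and the 2 other arrays high together, and its treatment differences were -0.03 and -0.18. Together with Ndufs5 it made 2 of 80 past 1.5-fold between the controls on the probe sets used, where 7.52% of measured genes were. Its difference between the controls was -1.26, a ratio of 0.419, and its second probe set gave -1.48, with 0.21 for Y-27632 and 0.02 for Mkl1 siRNA.

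Complex V consists of a catalytic head, a ring of c subunits that turns in the membrane, a peripheral stalk that holds the head still and small membrane subunits. Of its 17 genes 14 were above DMSO with Y-27632, 16 above control siRNA with Mkl1 siRNA, and 11 had both treatment arrays above both controls. Atp5a1, the alpha subunit of the head, stood at 12.46 with Y-27632 and 12.28 with DMSO, and at 12.59 with Mkl1 siRNA and 12.09 with control siRNA. The 3 Atp5a1 probe sets ran from -0.07 to 0.18 with Y-27632 and from 0.27 to 0.49 with Mkl1 siRNA. The catalytic beta subunit Atp5b differed by 0.03 and 0.26 and the gamma subunit Atp5c1 by 0.08 and 0.17. The delta subunit Atp5d was at 13.24 with both Y-27632 and DMSO and differed by 0.06 with Mkl1 siRNA. Control siRNA was below DMSO for 4 of the 5 head genes, and Atp5e, the exception at 0.19, differed by 0.15 with Y-27632 and -0.03 with Mkl1 siRNA.

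Atp5o, a stalk subunit that ties the head to the membrane part, stood at 12.37 with Y-27632 and 12.12 with DMSO, and at 12.84 with Mkl1 siRNA and 12.36 with control siRNA. Its 2 probe sets ran from 0.25 to 0.60 with Y-27632 and from 0.46 to 0.48 with Mkl1 siRNA. All 4 stalk genes were above 0 in both treatment comparisons and between the controls, with medians of 0.17, 0.21 and 0.13. The 3 genes for the c subunit, which encode the same mature protein with different import sequences, differed among themselves with Y-27632. Atp5g1 stood at 11.35 with Y-27632 and 11.07 with DMSO, and at 11.62 with Mkl1 siRNA and 11.20 with control siRNA. Atp5g2 and Atp5g3 differed by -0.04 and -0.03 with Y-27632 and by 0.10 and 0.25 with Mkl1 siRNA. The 5 small membrane subunit genes, with Atp5mpl at the top for Y-27632, lay close together, from 0.17 to 0.25 with Y-27632, from 0.14 to 0.21 with Mkl1 siRNA and from 0.12 to 0.19 between the controls.

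**Figure D3:**
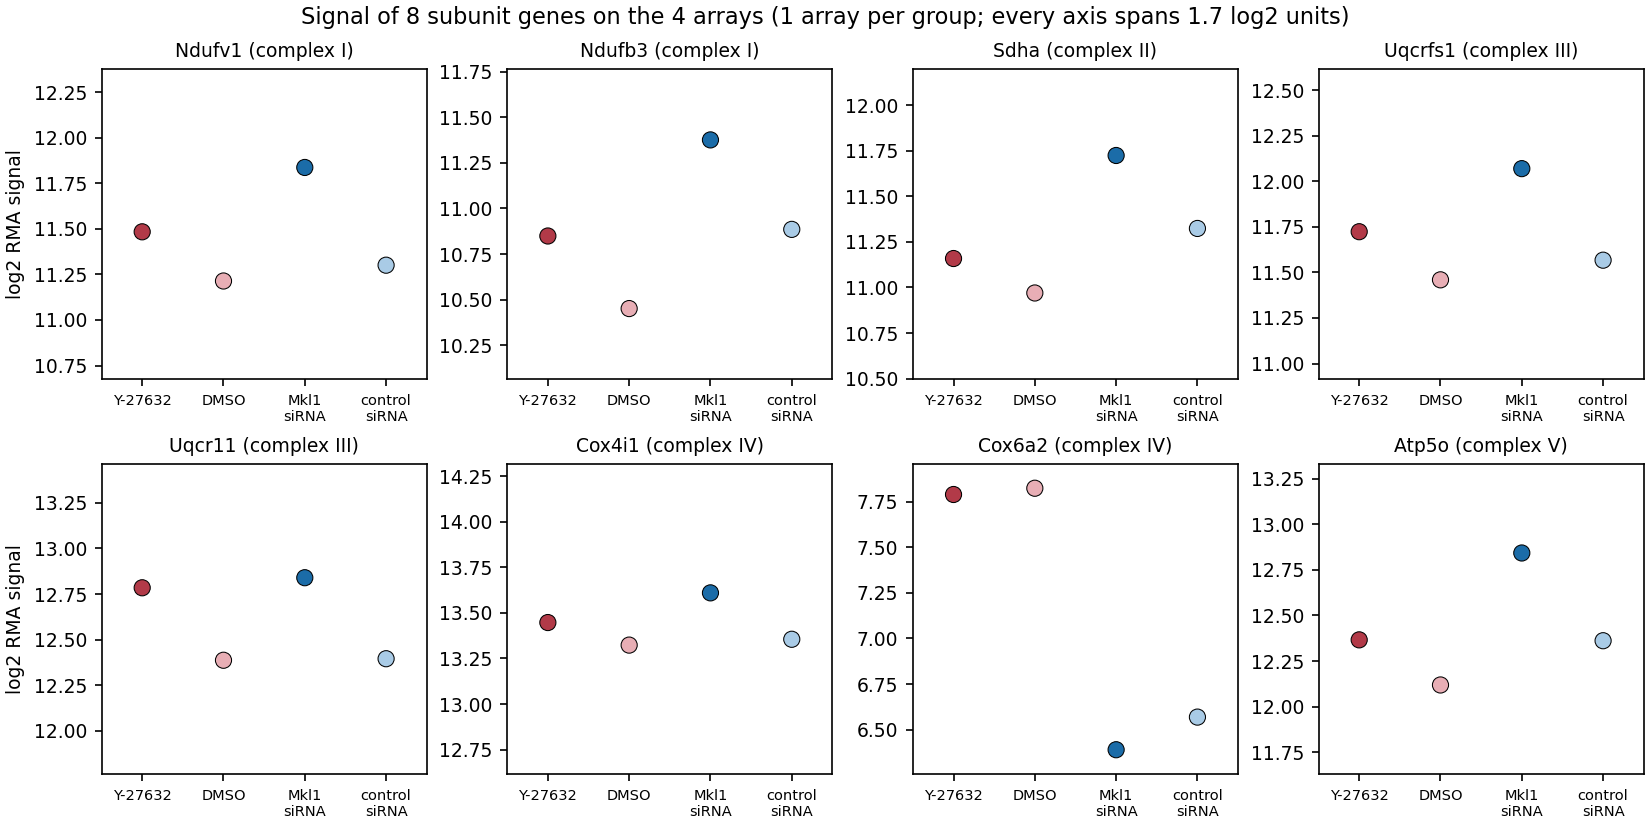
Log2 RMA signal of 8 subunit genes on the Y-27632, DMSO, Mkl1 siRNA and control siRNA arrays (1 point per array, every vertical axis of equal span). Uqcr11 is high on both treated arrays, Ndufb3 and Sdha are also higher with control siRNA than with DMSO, and Cox6a2 is low on both siRNA arrays.

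Subunits and carriers outside the name rule were looked up in a list. Cyc1, the cytochrome c1 of complex III, stood at 11.80 with Y-27632 and 11.53 with DMSO, and at 11.96 with Mkl1 siRNA and 11.34 with control siRNA. The electron carrier Cycs (cytochrome c) differed by 0.32 and 0.46, and Ndufab1, the acyl carrier subunit of complex I, by 0.23 and 0.34. Atpif1, which inhibits the ATP synthase, differed by 0.15 and -0.13. Cox7a1, the complex IV subunit of muscle and brown fat that the name rule leaves out, stood at 6.71 with Y-27632 and 6.10 with DMSO, and at 5.14 with Mkl1 siRNA and 6.33 with control siRNA. Its differences were 0.60 and -1.20, past 1.5-fold with Y-27632 and past 2-fold with Mkl1 siRNA, in opposite directions and on 1 probe set. Of subunits encoded by mitochondrial DNA, ND5 was read by 1 probe set, at 12.64 with Y-27632 and 12.32 with DMSO, and at 12.80 with Mkl1 siRNA and 12.87 with control siRNA, so that the DMSO array was the lowest.

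Related lists differed less or more than the subunits. Among 42 assembly factors that passed the filter, 35 were above DMSO with Y-27632 (median 0.11) and 28 above control siRNA with Mkl1 siRNA (median 0.16). Ndufaf1, which helps build complex I, stood at 0.30 and 0.77, Atpaf2, a chaperone of the ATP synthase head, at 0.42 and 0.60, and Sdhaf4, which helps mature the complex II flavoprotein, at 0.29 and -0.86. Of 76 mitochondrial ribosomal protein genes 62 and 56 were above 0 (medians 0.085 and 0.14), with Mrpl12 at 0.53 and Mrpl54 at -0.49 with Mkl1 siRNA. Of 15 citric acid cycle and pyruvate dehydrogenase genes 14 and 13 were above 0, with medians of 0.20 and 0.49. In that list Idh3a, a subunit of isocitrate dehydrogenase, stood at 0.90, Pdhb at 0.78 and Dlat at 0.69 with Mkl1 siRNA. Between the controls the citric acid cycle median was -0.076, on the other side of 0 from the subunits. Cytoplasmic ribosomal protein genes had medians of -0.029 and 0.030 over 41 genes, with 10 and 30 above 0. Among all measured genes 50.4% were above 0 with Y-27632 and 50.1% with Mkl1 siRNA. Whether these lists differ from the subunits was not tested.

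**Figure D4:**
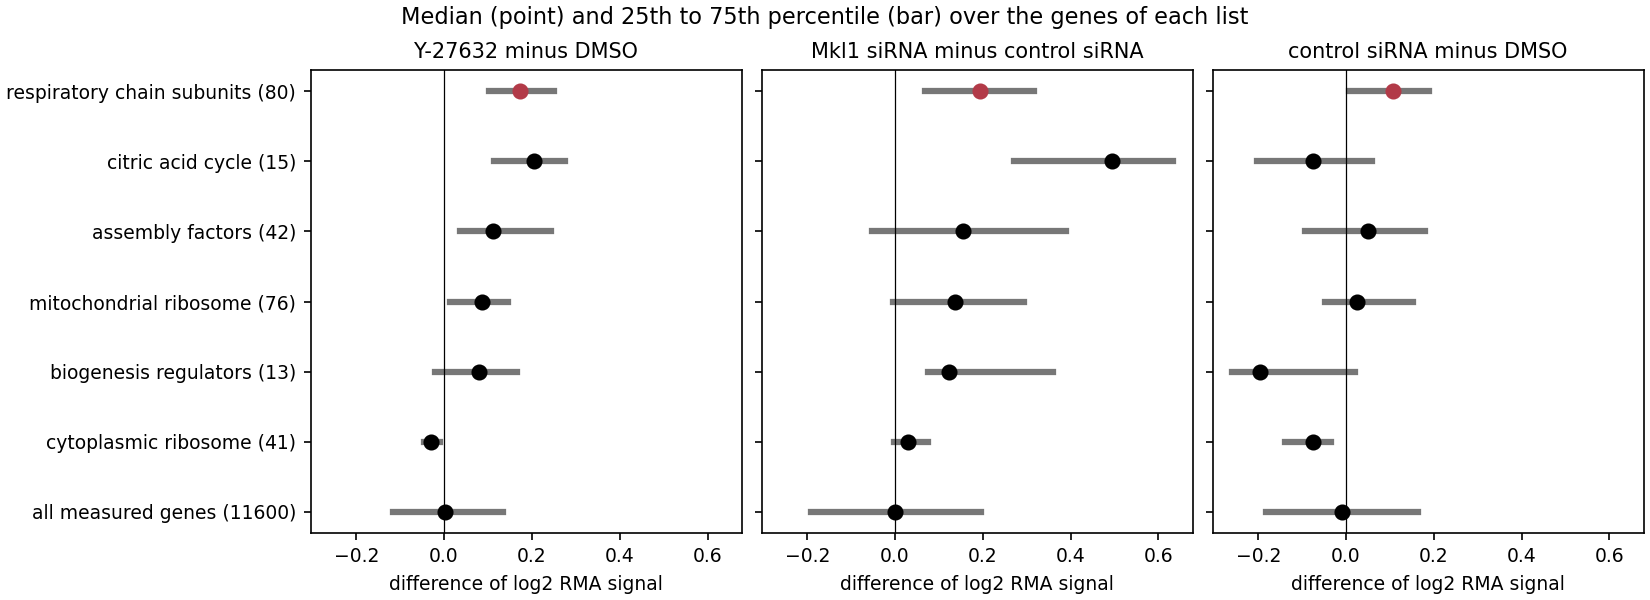
Median (point) and 25th to 75th percentile (bar) of the difference of log2 RMA signal over the genes of 6 lists and over all measured genes, in the 3 comparisons; the number of genes stands beside each name. Subunits lie at 0.17 and 0.19 with the treatments and 0.11 between the controls, and the citric acid cycle at 0.49 with Mkl1 siRNA.

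Genes that regulate mitochondrial formation were mixed. Ppargc1b, a coactivator of nuclear receptors on such genes, stood at 7.79 with Y-27632 and 5.94 with DMSO, and at 8.89 with Mkl1 siRNA and 5.73 with control siRNA, on 1 probe set. Its relative Ppargc1a lay below the filter on all arrays, at 3.69 to 3.84. Esrra, a receptor that works with both, differed by -0.02 and 0.36. Nrf1 differed by -0.24 and 0.04 and Gabpa by 0.08 and -0.16. Tfam, which packages and transcribes mitochondrial DNA, differed by 0.12 and 0.25, Tfb1m, a mitochondrial rRNA methyltransferase, by 0.21 and 0.62, and Polrmt, the mitochondrial RNA polymerase, by 0.17 and 0.37. Of the 13 regulators that passed the filter 8 were above 0 with Y-27632 (50.4% of measured genes) and 11 with Mkl1 siRNA (50.1%). Their medians were 0.079 and 0.12.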

How the data were processed

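Total RNA of the 4 cultures was labelled with biotin and hybridised to 1-colour Affymetrix arrays, and groups were taken from the sample titles. The authors deposited a log2 signal for every probe set on each array, produced by RMA per the submitters' processing notes; the version is not given in the sources used here. RMA corrects background, equalises array distributions and summarises probes, which compresses weak differences and hides differences in total RNA per cell. Medians of the arrays lay between 5.67 and 5.71. Gene symbols came from the platform annotation, and probe sets with several symbols were left out, including 9 that list a subunit. All 80 symbols were unchanged in the RefSeq gene table of GRCm38.p6. Each gene was represented by its probe set of highest mean across arrays.

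Differences, counts and medians were computed with pandas 2.3.3 and statsmodels 0.14.6, and tested on simulated data. With 1 array per group there are no p-values. Members and lists were chosen with earlier results of these data known, and motifs and promoters after the values were seen. Named genes were, per complex, the 2 genes of highest and the 2 of lowest difference with either treatment, every gene past 2-fold in any comparison, core subunits and isoform pairs, and up to 3 genes per other list; further genes were picked with their values in view. The alternatives tried were averaging a gene's probe sets, dropping those with the suffix _s_at, _x_at or _a_at, filters at 5.69 and at the 75th percentile (8.08), subtracting the median or a lowess curve (span 0.3), the other control array, leaving out Cox7a2l and tissue-restricted isoforms, and a 1.5-fold threshold. Sequences are from RefSeq.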

Additional observations from a re-analysis of the deposited data

How the results depend on the processing

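No test, error or leave-one-out value can be had with 1 array per group, so nothing here separates a treatment from the spread between cultures. No paired analysis was possible because each group has 1 array and the labels carry no replicate number. Of 187 recomputed values 174 stayed within the tolerance (0.1 for a median, 1.5 times for a count), 11 moved and 2 reversed. The median of the 80 genes ran from 0.066 to 0.18 over the alternatives for Y-27632 and from 0.17 to 0.30 for Mkl1 siRNA. For control siRNA minus DMSO it ran from 0.067 to 0.13. The other control array moved the most values: for Y-27632 the median was 0.066, with 0.054 for complex I and 0.023 for complex II, and for Mkl1 siRNA 0.30, with 0.35 for complex I; in each, 1 gene (Cox6a2) passed 2-fold. With probe sets open to binding several transcripts left out, the Mkl1 siRNA median of complex III was 0.18. Between the controls, the median of complex III was -0.016 with the mean of all probe sets and that of complex IV -0.0058 after the lowess correction. Genes past 2-fold there numbered 0 with the 75th percentile filter, 0 without tissue-restricted isoforms and Cox7a2l, and 2 at 1.5-fold; the first 2 of these settings leave Cox6a2 out. The cause of the other shifts was not tested.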
